A study of Caenorhabditis elegans with 2 samples.

Results

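The genes described here are innate immune effector genes of Caenorhabditis elegans that had a candidate region of HPL-2 at their 5′ end. They were chosen by name and position from the ce11 lists: protein-coding genes of the clec, lys, ilys, spp, cnc, abf and irg families for which a pooled candidate had its summit no more than 500 bp from a transcript's 5′ end. Of 312 genes with such names, 84 met the rule. They were reached by 93 of the 30000 pooled candidates, in 96 pairs of region and gene. The pooled list is labelled as peaks and background, so a candidate is not by itself a site of HPL-2. A q-value under 0.05 was given to 14 of the 93. The rule used the pooled list, so the members' signals, ranks and positions in it are given as a description and were not tested.

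HPL-2 is a worm homologue of heterochromatin protein HP1. Chromatin immunoprecipitation followed by sequencing (ChIP-seq) gave 2 libraries, labelled as biological replicates 1 and 3, from one group of whole, starved L1 larvae of mixed sex, synchronised by bleaching. Both came from strain YL474. Its alleles are n745 of lin-35 and ed3 of unc-119, and its array vrIs64 holds pGES-1::HPL-2::GFP FLAG together with unc-119 (+). The ges-1 promoter drives expression in the intestine, while the chromatin was that of the whole animal. The antibody entry names hpl-2 and the description names the eGFP fusion, so it is not known here which of them was pulled down. Both libraries share the lin-35 allele. Controls and worms with wild-type lin-35 were not analysed here, so nothing below compares conditions. The lists hold no read counts, and the depth of either library is unknown.

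C. elegans has no adaptive immune system. It meets intestinal and epidermal infection by secreting proteins that bind or kill microbes, many of which are made in the intestine. The p38 kinase pathway of tir-1, nsy-1, sek-1 and pmk-1, the transcription factor atf-7 that pmk-1 acts on, the GATA factor elt-2 and the regulators hlh-30 and daf-16 are known to control many of these genes. The clec genes encode proteins with C-type lectin-like domains, some of which bind sugars. The lys and ilys genes encode lysozymes of the protist and invertebrate types, which break bacterial cell walls. The spp genes encode saposin-like proteins, among them caenopores that open bacterial membranes. The cnc genes encode caenacin peptides of the epidermis, the abf genes defensin-like peptides, and the irg genes were named as infection response genes.

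The sequences that follow show the DNA under the summits of members that led their family, and around copies of the GATA-type hexamer described further on. These copies were found within 100 bp of a member summit, and most of their windows do not hold the summit base. The ilys-5 copy shown, for example, lay 86 bp from the summit. Each is 29 bases of ce11 (WBcel235, from the RefSeq copy), read 5′ to 3′ along the gene's strand. In the windows named summit, the capital is the summit base. In the others, the capitals are TGATAA or its reverse complement TTATCA.

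clec-57 summit (chrV:14468757-14468785, + strand): gatgtactggtctgTcccgacatcttgtg
spp-3 summit (chrX:7315671-7315699, - strand): taccaaaattttgaTctcctatatatata
lys-7 summit (chrV:3482887-3482915, - strand): tcaaaaaatcaaggTgtttatgaaaatgt
irg-2 summit (chrV:4042022-4042050, + strand): cccgcttatataccCtcatggcgcaatat
abf-4 summit (chrV:20558453-20558481, - strand): aaccgagtacagacTgctaatcaaactaa
clec-78 hexamer (chrIV:3988859-3988887, + strand): gtcatactcatTTATCAatgagcactagt
clec-78 hexamer (chrIV:3988876-3988904, + strand): atgagcactagTGATAAaaagcaaacaat
clec-78 hexamer (chrIV:3988816-3988844, + strand): aaaactcaaagTGATAAgcaccagtccac
clec-86 hexamer (chrX:7139849-7139877, + strand): ataaatagctgTGATAAgcagataaaatt
spp-18 hexamer (chrIV:9593642-9593670, + strand): tgtcgatcaacTGATAAgaggcctcaaat
lys-1 hexamer (chrV:10277764-10277792, + strand): actgattacccTTATCActggacgttttc
clec-80 hexamer (chrIV:2823730-2823758, + strand): tttcgagcttcTTATCAattcctctttct
ilys-5 hexamer (chrX:6536720-6536748, - strand): tgtcggtgagtgTGATAAcaaaattaaaa
lys-5 hexamer (chrIV:11625415-11625443, - strand): aattcccagaatTTATCAttcatcgggaa
spp-6 hexamer (chrX:7317042-7317070, + strand): tttgtggctacTGATAAattgttccgtgt
clec-41 hexamer (chrV:13138159-13138187, - strand): atcatcaattacTGATAAcactttttttt

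These windows differ in composition. The summit window of clec-57 had 51.7% G and C, and that of spp-3 had 20.7%. Within 100 bp of the clec-57 summit 53.7% of bases were G or C and none was repeat-masked. A copy of the hexamer covered the summit base at clec-78 and at clec-41, which stands near the bottom of the list, and at spp-18 a copy ended just before it.

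A candidate at a 5′ end was found for 84 of 312 family genes (26.9%), against 39.6% of all protein-coding genes, which is 7918 of 19973. The rule used this list, and nothing is read from the difference. In the library lists, which use the same reads as the pooled list, the same rule found 90 family genes in replicate 1 (28.8%), against 39.3% of all genes. In replicate 3 it found 94 (30.1%), against 38.6% of all genes.

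The families differed in these shares. The C-type lectin-like clec family gave 59 of 240 genes in the pooled list (24.6%), 64 in replicate 1 and 66 in replicate 3. The saposin-like spp family gave 17 of 31 (54.8%), with 15 in replicate 1 and 12 in replicate 3. Of 10 lys genes 4 were members, with 5 in replicate 1 and 4 in replicate 3. Of 6 ilys genes 2 were found in each of the 3 lists. One member each came from the 6 abf genes and the 8 irg genes. None of the 11 cnc genes was a member, while replicate 1 had 1 of them (cnc-9) and replicate 3 had 5. The cnc candidates of replicate 3 were weak, from rank 15879 for cnc-2 to rank 28618 for the one shared by cnc-3 and cnc-4. In replicate 3 the irg family had 4 genes, irg-2 and the non-members irg-3, irg-4 and irg-8. The shares of the small families rest on few genes each.

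**Figure D1:**
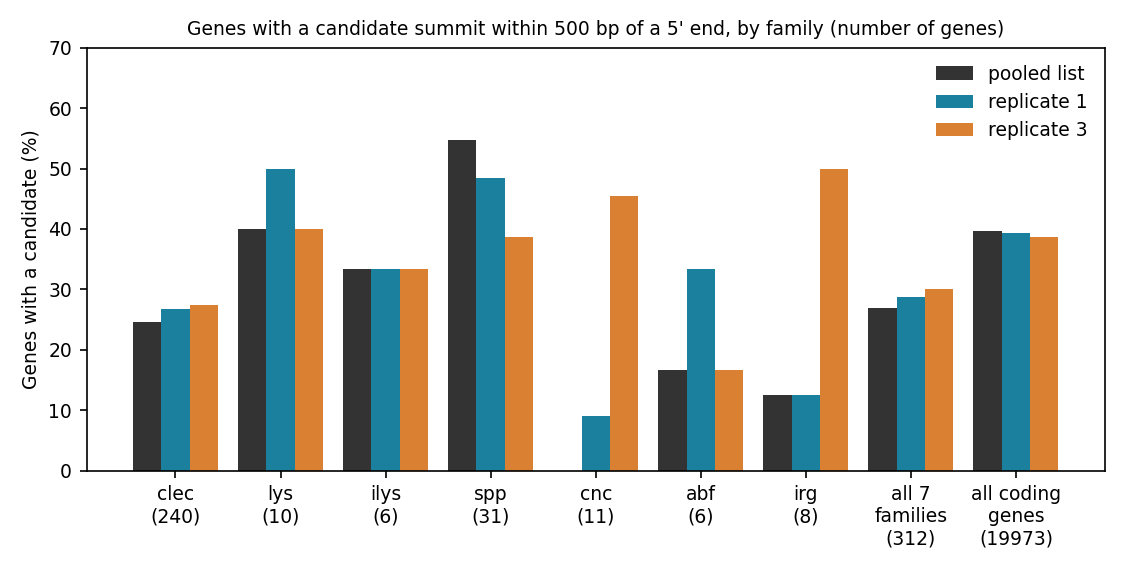
Share of protein-coding genes (%) with a candidate summit within 500 bp of a 5′ end, by family, with the number of genes in brackets, in the pooled list and the list of each library. The spp bars stand at 54.8% in the pooled list and 38.7% in replicate 3, the cnc bars at 0% and 45.5%, and all 7 families together lie between 26.9% and 30.1%, against 38.6% to 39.6% of all coding genes.

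No member had a region in the authors' thresholded list, 0 of 84, against 8.42% of all genes with a pooled candidate. That list is labelled as optimal IDR thresholded, IDR being the irreproducible discovery rate. It holds 857 regions, and its lowest signal was 37.9. The label names a measure of agreement between replicates, so the 0 of 84 and the library ranks below are not separate observations. The signal is the authors' enrichment value per region, and rank 1 is the highest of a list. The best pooled candidate per member had a median signal of 13.0 and a range of 7.91 to 32.2. Over all genes with a candidate the median was 13.6 and the range 7.89 to 202.2. Counted by region, the order of the medians was the other way, 13.0 (median rank 11075) over the 93 member regions and 12.4 (median rank 12457) over all 9326 candidates at protein-coding 5′ ends. Counted by gene, 8 members lay in the upper 10% of the pooled list (9.52%), against 22.3% of all genes with a candidate. Between the 50 and 90 percentile marks lay 49 of 84 members, against 42.5% of all genes with a candidate, and 18 members lay in the lowest 20%, against 12.6%. The family medians were 13.0 for clec, 13.4 for lys, 11.4 for ilys and 12.9 for spp.

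**Figure D2:**
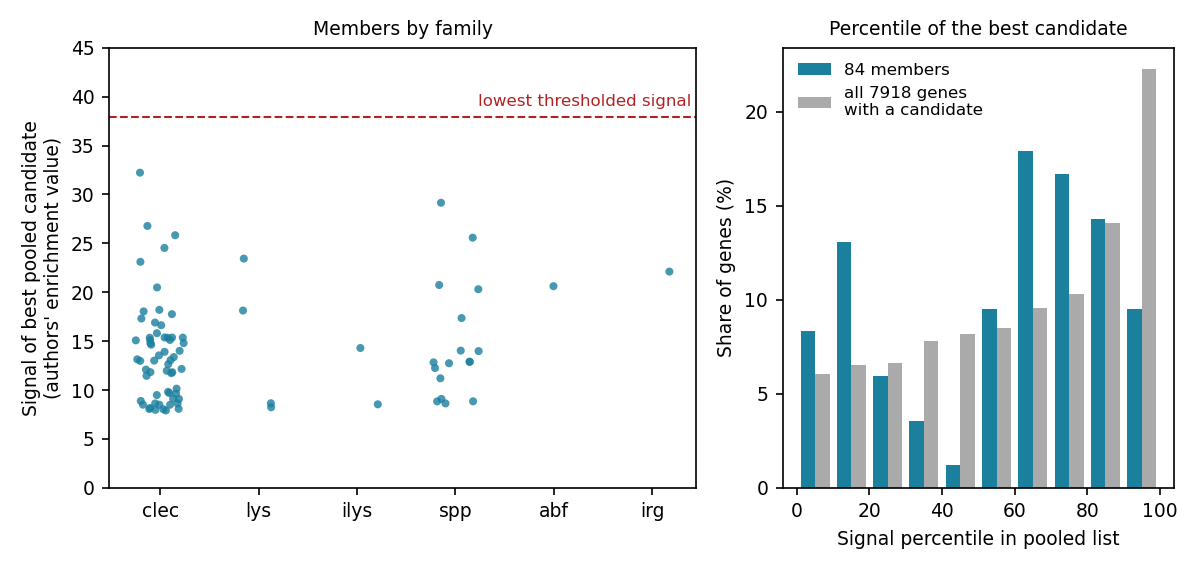
Left, the authors' signal of the best pooled candidate of each of the 84 members, 1 point per gene by family, with the lowest signal of the thresholded list as a dashed line. Right, the percentile of that signal in the pooled list, in steps of 10, as a share of members and of all 7918 genes with a candidate. The highest member reached 32.2, under the line at 37.9, and the top step held 9.52% of members and 22.3% of all genes.

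The clec genes led the list and also ended it. Clec-57 had the highest member signal, 32.2 (rank 1238), with its summit 460 bp upstream of the 5′ end in intergenic sequence. In replicate 1 its candidate had a signal of 28.2 (rank 991). In replicate 3 the candidate with the nearest summit had a signal of 2.56 (rank 23356), in the lower 25% of that list. A stronger replicate 3 region that also touches it ranked 656, but it belongs to the adjoining region at srz-97. The snRNA gene F08H9.11 and the ncRNA gene F08H9.13 lay within 250 bp of both the clec-57 summit and the adjoining one, and their part in the values was not tested. That adjoining region was in the thresholded list (pooled signal 41.1, rank 717), with its summit 687 bp from the clec-57 5′ end. Clec-57 was thus high in replicate 1 and low in replicate 3.

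Clec-78 showed the reverse order. Its pooled signal was 26.8 (rank 1952), its replicate 1 signal 11.1 (rank 10860) and its replicate 3 signal 15.9 (rank 290), with the summit 227 bp upstream. Signals of the 2 libraries are on different scales, from 6.69 to 198.4 in replicate 1 and from 2.01 to 58.0 in replicate 3, so only ranks are set side by side. Clec-86 was near the upper 10% of both, with a pooled signal of 25.8 (rank 2108), replicate 1 rank 3751 and replicate 3 rank 2093, and its summit lay 47 bp upstream. Clec-126 had 24.5 (rank 2391) and replicate 1 rank 1423, and no replicate 3 candidate overlapped it. A pair of tRNA genes lay within 250 bp of that summit, and their part in the value was not tested. Clec-7 had 23.1 (rank 2770), with rank 2557 in replicate 1 and 21690 in replicate 3. Clec-80 had 20.5 (rank 3683), 45 bp downstream of a 5′ end, with ranks 4193 and 16964 in replicates 1 and 3, the second with its summit 296 bp away. It had 3 candidates, the most among the members named here.

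At the other end, clec-137 had a signal of 7.91 (rank 29868) and clec-41 one of 7.97 (rank 29480). The lowest signal of the pooled list was 7.88, so these candidates lay at its floor. Clec-137 had rank 20233 in replicate 1 and clec-41 rank 29711, and replicate 3 had no candidate overlapping either.

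Among the saposin-like genes, spp-3 had the highest signal, 29.1 (rank 1563), 332 bp upstream. It resembled clec-78 in its libraries, with rank 455 in replicate 3 and rank 11992 in replicate 1. Spp-18 had 25.6 (rank 2168), 50 bp upstream, with rank 2715 in replicate 1 and no candidate in replicate 3. Spp-14 had 20.7 (rank 3580) 311 bp upstream and 20.03 (rank 3886) 272 bp downstream in a coding exon. Its upstream candidate ranked 6294 in replicate 1 and 5547 in replicate 3, which are closer to each other than for the other leading spp genes. The gene of the caenopore spp-5, known to act against bacteria in the gut, had 20.3 (rank 3757) in a coding exon 218 bp downstream, with ranks 4080 and 18979 in replicates 1 and 3. Spp-28 had 17.4 (rank 5488), with rank 17262 in replicate 1 and 8178 in replicate 3, both lower than in the pooled list. Spp-23 had 14.03 (rank 9344), with rank 7765 in replicate 1 and none in replicate 3. The lowest were spp-10 at 8.84 (rank 24868) and spp-21 at 8.63 (rank 25920), with ranks 26121 and 25413 in replicate 1 and none in replicate 3.

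The lysozyme genes split into a higher and a lower pair. Lys-7, a lysozyme gene known to respond to bacterial infection, had 23.4 (rank 2666), 301 bp upstream, with ranks 5347 and 3291 in replicates 1 and 3. Its replicate 3 summit lay 124 bp from the pooled one. Lys-1 had 18.1 (rank 4921), 72 bp upstream, with ranks 16449 and 5099. Lys-5 had 8.65 (rank 25854), with rank 12788 in replicate 3 and no replicate 1 candidate. Lys-6 had 8.24 (rank 27997), with rank 20015 in replicate 1 and none in replicate 3. Lys-5 and lys-6 are neighbours on chromosome IV, yet each was found by a different library. Of the invertebrate-type lysozymes, ilys-5 had 14.3 (rank 8905) in an intron, with ranks 8128 and 22785. Ilys-3, an intestinal and pharyngeal lysozyme, had 8.54 (rank 26406), with ranks 18876 and 7364, the second with its summit 192 bp away.

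The single members of the abf and irg families had higher signals than most. Abf-4 had 20.6 (rank 3626), 97 bp upstream, with rank 4356 in replicate 1 and none in replicate 3. Irg-2 had 22.1 (rank 3068), 145 bp upstream, with ranks 3578 and 3501 in replicates 1 and 3. The nearest 5′ end to this summit was that of C49G7.10, at 15 bp. The replicate 1 summit lay 199 bp from it, at the second irg-2 candidate (signal 13.1, rank 11030, 58 bp downstream), and the replicate 3 summit lay 26 bp from it. The near equal ranks of the libraries therefore belong to summits at different places.

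The libraries were compared over the 93 member regions, taking the library candidate that overlapped by at least 1 bp with the nearest summit. A replicate 1 candidate overlapped 69 of them (74.2%), against 82.7% of all 9326 pooled candidates at protein-coding 5′ ends. A replicate 3 candidate overlapped 54 (58.1%), against 57.8%. Both libraries had one at 39 (41.9%), against 46.3%, and neither had one at 9 (9.68%), against 5.89%. The pooled list was made from the reads of both, so these overlaps are no independent evidence for the regions. No member region lay in the upper 10% of both library lists, 0 of 93, against 7.14% of all candidates at 5′ ends. Each library alone placed 5 member regions in its upper 10% (5.38%), against 17.1% in replicate 1 and 14.6% in replicate 3. Among the 93 regions 5 pairs overlapped each other, so 1 library candidate could be matched to both. In replicate 1 the 5 include both clec-7 regions, matched to the same candidate (rank 2557). Where the strongest overlapping region was taken in place of the nearest, 1 member region passed in both, that of clec-57 with the adjoining srz-97 region, against 8.41% of all. A q-value under 0.05 in the authors' list was given to 14 regions (15.1%), against 21.9%.

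**Figure D3:**
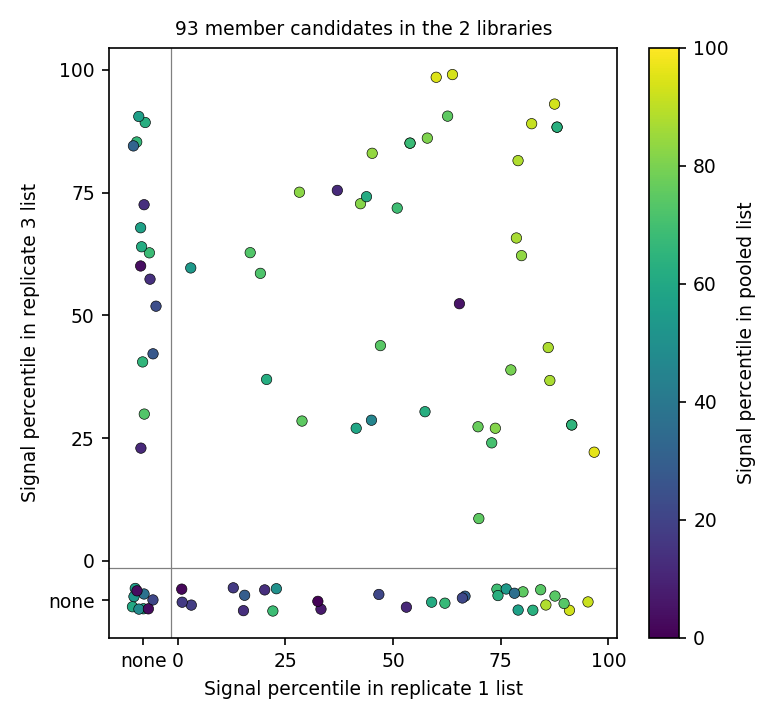
Signal percentile of the 93 member regions in the list of replicate 1 (x axis) and of replicate 3 (y axis), 1 point per region, coloured by the percentile in the pooled list, with regions that no candidate of a library overlapped placed at "none". Both libraries had a candidate at 39 regions, the corner above the 90 mark of both is empty, and clec-57 is the point farthest right, at 96.7 and 22.2.

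By gene, 36 of 84 members were found by the same rule in both library lists (42.9%), against 53.6% of all genes with a pooled candidate. Replicate 1 alone had 26 of the 84 members, against 2372 of all 7918 genes with a pooled candidate. Replicate 3 alone had 13, against 855. The 9 members found in neither (10.7%, against 5.61% of all such genes) were clec-8, clec-122, clec-137, clec-139, clec-151, clec-167, clec-168, spp-7 and spp-26. Some of these, such as spp-26 with its summit 490 bp upstream, had library candidates that overlapped the region but whose summit fell outside the window. Conversely, clec-1, clec-56, clec-58, clec-143, clec-246 and spp-8 were found in both libraries but not in the pooled list. Over all 3 lists 151 of 312 family genes had a candidate in at least 1, and 161 had none. Of all 19973 protein-coding genes, 11422 had a candidate in at least 1 list. As many regions as the thresholded list holds, taken from the top of each library, held clec-78 and spp-3 in replicate 3 and no family gene in replicate 1. The share of all genes is not given beside these counts, so nothing is read from them.

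Most member summits lay upstream of the nearest transcript 5′ end of the gene. Such an end can lie inside the gene, as for the clec-80 candidate 161 bp upstream, which stood in a coding exon of clec-80. The median distance from the 5′ end was 199 bp, against 209 bp over all pairs, and 59 of 96 summits lay upstream (61.5%), against 62.3%. Intergenic sequence held 50 of 93 summits (53.8%, against 43.6%), introns 17 (18.3%, against 28.5%), coding exons 19 (20.4%, against 17.8%) and 5′ UTRs 6 (6.45%, against 7.03%). The rule bounds the distance at 500 bp. Just inside the window lay clec-36 at 499 bp, clec-139 at 495 bp and clec-137 at 491 bp, with signals of 8.50, 12.6 and 7.91. Just outside lay clec-208 at 507 bp, spp-12 at 512 bp and irg-8 at 516 bp, with signals of 8.60, 12.7 and 10.5.

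**Figure D4:**
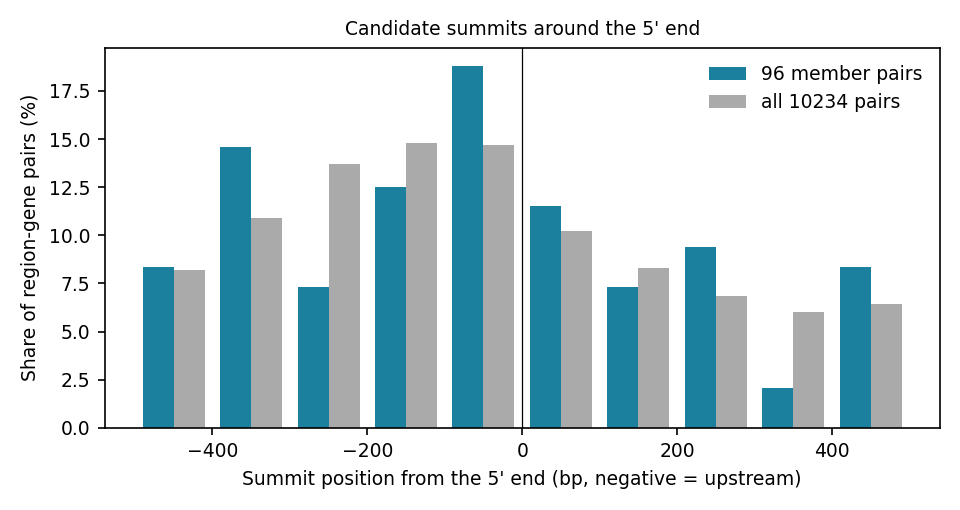
Position of pooled candidate summits from the 5′ end (bp, negative is upstream) in bins of 100 bp, as a share of the 96 pairs of region and member and of all 10234 pairs. Both distributions are higher upstream, with 61.5% of member summits and 62.3% of all summits before the 5′ end.

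Several members shared a candidate or a neighbourhood. Clec-27 and clec-35 shared one of signal 15.3 (rank 7457), which was lower in each library, at rank 21336 in replicate 1 and 21454 in replicate 3. Spp-2 and spp-6 shared one of 12.9 (rank 11416), also lower in each library, at ranks 23802 and 18912, the second with its summit 193 bp away. Clec-26 and clec-36 shared one of 8.50 (rank 26609), with rank 14068 in replicate 1 and no candidate in replicate 3. Of the 93 regions, 10 reached a second gene (10.8%), against 9.53% of all candidates at 5′ ends, and the nearest 5′ end was that of a family gene at 88. Family genes often stand in rows. In 29 runs of at least 3 family genes with gaps of at most 20 kb, 38 of 139 genes were members (27.3%), and outside runs 46 of 173 were (26.6%). The run of clec genes on chromosome IV from 3922165 to 4014235 had 6 members of 12 genes, among them clec-78, clec-72 and clec-76. The spp run on the X chromosome from 7314969 to 7320354 had 4 of 5, spp-2, spp-3, spp-5 and spp-6. The cnc run on chromosome V had 0 of 6, and a clec run there from 18738955 to 18774024 had 0 of 7.

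Members were also uneven between chromosomes. The X chromosome held 11 members of 19 family genes (57.9%, against 37.8% of all its protein-coding genes), with 7 of its 11 spp genes. Chromosome III held 9 of 17 (52.9%, against 48.8%), chromosome IV 22 of 69 (31.9%, against 40.9%) and chromosome II 13 of 51 (25.5%, against 35.7%). Chromosome V held 25 of 113 (22.1%, against 35.0%), and chromosome I held 4 of 43 (9.30%, against 44.5%). These shares are those of the pooled list, which the rule used. Replicate 3 had candidates at several chromosome I family genes that were not members, among them clec-53 (rank 1425), clec-17 (rank 6339) and abf-1 (rank 11232). Replicate 1 had such candidates at clec-90 and clec-101. The outer 25% of each autosome end held 64.4% of autosomal members, 61.4% of autosomal family genes without a candidate and 41.9% of all autosomal genes with one. Members had a median gene length of 1789 bp, against 2393 bp for all genes with a candidate.

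The sequence around the summits was read 100 bp to either side. Mean G and C content was 35.3% ± 6.06 over member regions and 35.9% ± 6.53 over all candidates at 5′ ends, and repeat masking covered 27.9% ± 19.3 and 33.3% ± 21.5 (SD over regions, n = 93 and 9326). TGATAA, the letters that GATA factors such as the intestinal regulator ELT-2 are known to recognise, was searched on both strands. It stood in 38 member regions (40.9%), against 22.6% of all. GTAAACA, a DAF-16 motif, stood in 7 (7.53%), against 3.39%, and CACGTG, an E-box of the kind HLH-30 is known to bind, in 2 (2.15%), against 4.49%. In the candidates of replicate 1 TGATAA stood in 27 of 92 family regions (29.3%, against 22.4%) and in those of replicate 3 in 41 of 101 (40.6%, against 22.6%). A match is a description of letters, not of binding, and regions are not replicates, so no test was made.

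Copies of the hexamer were unevenly spread. At least 2 stood in 15 member regions (16.1%), against 5.35% of all, and at least 3 in 4 (4.3%), against 1.01%. Clec-78, the strongest family candidate of replicate 3, had 5 copies, clec-51 had 4, and clec-72 and clec-205 had 3 each. The strongest pooled candidates, clec-57 and spp-3, had none. Upstream of the 5′ end 28 of 59 pairs held it (47.5%, against 23.3%), and downstream 11 of 37 (29.7%, against 20.2%).

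The hexamer also stood before family genes that had no candidate. In the 200 bp before the outermost 5′ end, a window chosen after the summit values were seen, it stood at 49 of 84 members (58.3%), 89 of 228 family genes without a pooled candidate (39.0%), 24.0% of all genes with a candidate and 22.6% of all protein-coding genes. By family it stood at 8 of 10 lys genes, 5 of 8 irg genes, 48.4% of spp genes and 43.8% of clec genes, and at 3 of 11 cnc genes (27.3%), 1 of 6 ilys genes and 1 of 6 abf genes (16.7% each).

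**Figure D5:**
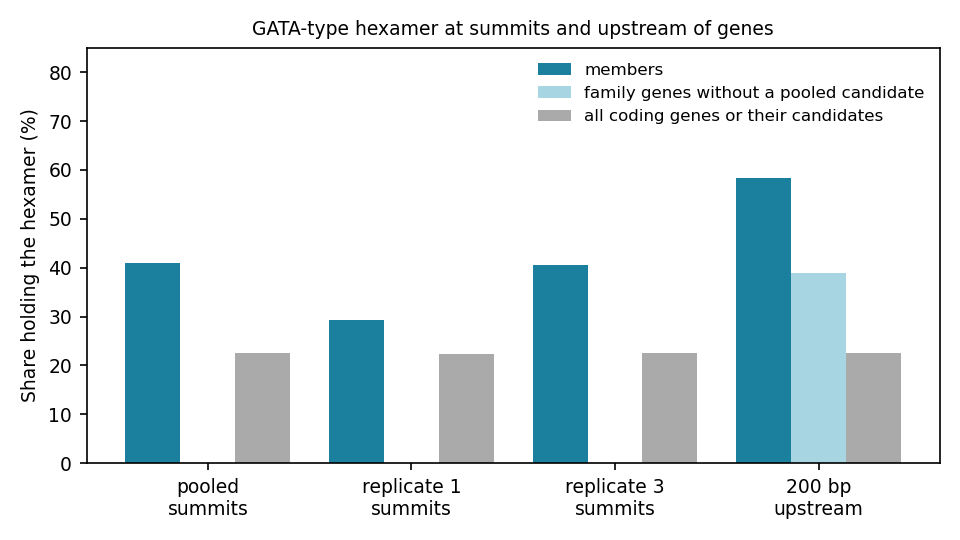
Share (%) of windows that hold the GATA-type hexamer on either strand, within 100 bp of summits in the pooled list and in each library's list, and in the 200 bp before the outermost 5′ end. The first bar of each set is for members (in the library lists, all family genes with a candidate there), the last for all protein-coding genes or their candidates. Before the 5′ end the bars read 58.3% for members, 39.0% for family genes without a pooled candidate and 22.6% for all genes.

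Regulators of these genes were read by the same rule for comparison. A list of 36 regulators of worm immunity was put together by name, so its share depends on that choice. Of these, 28 had a pooled candidate (77.8%, against 39.6% of all genes), with a median signal of 18.8, against 13.6 over all genes with a candidate. Values are given for those with a thresholded region and for those named in the background above. A thresholded region was found for 3 of the 28, against 8.42% of all genes with a candidate, and no test was made. These were zip-2, a bZIP factor of the response to blocked translation, with 53.4 (rank 384; 302 in replicate 1 and 8358 in replicate 3), sma-2, a Smad of the DBL-1 pathway, with 52.3 (rank 405; 357 and 3395), and hlh-30, an autophagy and immunity factor, with 39.5 (rank 789; 1315 and 1395). Atf-7 had 23.1 (rank 2783), with rank 9476 in replicate 1 and 297 in replicate 3. Elt-2 had 21.0 (rank 3481), with rank 4622 in replicate 1 and 29884 in replicate 3. Daf-16 had 19.1 (rank 4362), with ranks 8650 and 5745, and pmk-1 had 8.97 (rank 24223), with ranks 8635 and 26912. Tir-1 had 20.7 (rank 3581), with rank 2858 in replicate 1, and nsy-1 had 10.6 (rank 17513), with rank 9056 in replicate 1. No replicate 3 candidate overlapped either region, and sek-1 had no pooled candidate. Of other antimicrobial peptide genes, 3 of 8 from nlp-27 to nlp-34 had a candidate, as did 10 of 36 fip and fipr genes and 1 of 5 thn genes, and none had a thresholded region.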

How the data were processed

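HPL-2 ChIP-seq was deposited as region lists for biological replicates 1 and 3, for both pooled, and as a thresholded pooled list. The pooled list is labelled as peaks and background, the input for IDR. The thresholded list is labelled as optimal IDR thresholded peaks. The ce11 lists were used; the ce10 lists were not. The authors' deposited signal (column 7) is an enrichment value per region, and the deposited lists also hold the −log10 of a q-value. For the aligner, the caller and their versions, nothing is given in the sources used here, and the depth of each library is unknown. Regions have fixed widths in nearly all cases (376 bp pooled), so summits were used (1-based), with protein-coding transcripts of Ensembl release 115 and sequence of the RefSeq copy of WBcel235. Regions were ranked by signal within each list.

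The members and lists were chosen with earlier results of these data known. The named genes were all members of small families, the 6 highest and 2 lowest of larger ones, genes at the edges of the window and members that share a candidate. A library candidate was matched to a pooled region by overlap. Where several overlapped, the one with the nearest summit was taken, a choice made after the strongest one was seen to give clec-57 a region of an adjoining gene. The hexamer window before 5′ ends, the copy counts and the runs of genes were also added after values were seen. No test was made: there is 1 group, and genes and regions are not replicates. Assignment was tested on simulated regions. Python 3.11.15, numpy 2.4.6 and pandas 2.3.3 were used.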

Additional observations from a re-analysis of the deposited data

How the results depend on the processing

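With a window of 250 bp 54 genes were members, against 84, and other windows, gene assignments and the library lists gave counts from 80 to 119. The count of members with a thresholded region was 0 under the other settings tried, but 2 at 1000 bp (clec-57 by the srz-97 region, and clec-196, no member at 500 bp, by that of hsp-1). No thresholded list of a single library was used. As many regions from the top of each library's own list held 2 family genes in replicate 3 and 0 in replicate 1. The share of all genes is not given beside these 2 counts, and nothing is read from them. The median signal percentile of member regions was 63.1 in the pooled list, 54.4 among candidates at 5′ ends, and 45.1 to 50.2 with a replicate left out. Mean G and C content was 35.7% to 36.5% with a replicate left out. Regions found in both libraries numbered 39, and 15 in the upper 50% of each list. For the 15, the share of all candidates is not given, and nothing is read from this count. The cause of these shifts was not tested. No paired analysis was possible because there is a single group. The lists hold no read counts, so no interval can be given and what depth limits is unknown. Ranks of single members differed widely between the libraries. Over the 39 member regions with a candidate in both, the Spearman correlation of the library percentiles was -0.0463. Over all 4322 such candidates at protein-coding 5′ ends it was 0.384, and no test was made.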
